A study of Mus musculus with 16 samples.

Results

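The inner lining of a vessel senses the drag of flowing blood and sets the tone of the vessel wall, and 9 genes with these tasks were followed through sorted cells of the mouse embryo. They were Klf2, Klf4, Nos3, Edn1, Ece1, Calcrl, Ramp2, Thbd and Egfl7, picked by name for their known roles. The choice was made with earlier results of these data known, so it was not blind to them. All 9 were measured, among 24589 genes tested, by 10 probes: 2 for Nos3 and 1 for each of the others. Every one of these probes was well above background on all 16 arrays, so no member passed the filter on dim signals through 1 group only.

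Laminar flow acts on endothelial cells through a kinase cascade that ends at MEF2 factors, which switch on the zinc finger factors Klf2 and Klf4. These in turn are known to raise Nos3, the endothelial nitric oxide synthase that relaxes smooth muscle, and Thbd, thrombomodulin, which turns thrombin to anticoagulant use, and to restrain Edn1, the precursor of the vasoconstrictor endothelin-1 that Ece1 cuts to its active form. Calcrl and Ramp2 together form the receptor for adrenomedullin, a peptide that relaxes vessels and is needed for their integrity in the embryo. Egfl7 is a secreted protein of endothelial cells whose gene also carries the microRNA miR-126.

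Transcript levels were read on Agilent 1-colour arrays in VE-cadherin+ cells sorted at E11.5 from animals of a mixed strain background (B6/CBA and others). VE-cadherin, the product of Cdh5, is a junction protein of endothelium, and CD45, the product of Ptprc, marks leukocytes. The 8 groups of 2 arrays each were made by tissue (the embryo proper or the yolk sac), by gate (CD45-, named P3, or CD45+, named P4) and by genotype (control or Tie-2-Etv2), with no treatment after the sort. Etv2 is an ETS factor that starts the endothelial and blood lineages, and Tie-2 is the receptor encoded by Tek. The genotype label names Tie-2-Etv2 for all transgenic samples, while the titles of those from embryo CD45- cells name Tie-2 alone. Per the labels, the Etv2 transgene in these animals is switched on by a Tie-2 Cre transgene. Tie-2 is made in endothelium and in part of the blood lineage. The alleles of the control animals are not stated. Whether both samples of a group stem from different embryos or litters is not stated, and the p-values then reflect array-to-array spread alone, possibly of technical origin.

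The share of probes well above background ran from 50.6% to 59.9% over the arrays, with 0 saturated spots. Replicate arrays had correlations of 0.975 to 0.992 over genes, which are not independent points, and their number limits the precision. A level below is a log2 signal relative to the 75th percentile of its array, a difference is between group means on that log2 scale, and the error after it is the standard error (SE) of the limma fit. A gene was called where its Benjamini-Hochberg adjusted p, over all genes tested, was under 0.05. Embryo and yolk sac arrays lay on separate slides and the gates in separate slide columns. Tissue and slide, or gate and column, thus cannot be told apart. The genotypes were compared within a slide and column. In each column controls lay in slide rows 1 and 2 and Tie-2-Etv2 arrays in rows 3 and 4, so genotype and row cannot be told apart either. In controls all 12 endothelial markers (Cdh5, Pecam1, Kdr and others) were lower in CD45+ than in CD45- cells, with median differences of -6.67 (embryo) and -6.53 (yolk sac), although both gates are labelled VE-cadherin+. All 13 leukocyte and macrophage markers were higher there, with medians of 8.49 and 8.95. For Etv2 itself, read by 2 probes, the genotypes did not overlap in any of the 4 populations, with the transgenic arrays above. On the first probe its levels were -0.14 and -0.13 against 2.58 and 2.13 in embryo CD45- cells, whose titles name Tie-2 alone, and -2.60 and -2.95 against 3.90 and 3.26 in yolk sac CD45- cells. The levels were -2.39 and -2.75 against 0.11 and 0.94 in embryo CD45+ cells and -6.20 (not well above background) and -2.09 against 2.11 and 1.76 in yolk sac CD45+ cells.

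Tie-2-Etv2 and control samples were compared first, population by population. Among CD45- cells of the yolk sac 8 of the 9 genes were lower in Tie-2-Etv2 samples, and Egfl7 alone was not called. The 8 fitted differences ran from -2.31 for Klf2 to -3.57 for Edn1, that is from 4.96-fold to 11.8-fold. Of all genes 15.8% were called lower in that comparison, and the median difference was 0.18 over all genes against -2.97 over the 9. All 9 genes had arrays that did not overlap between genotypes, as did 75.4% of all genes. The calls over all genes split into 6407 higher and 3883 lower, and into 4063 and 5621 with scaling on the probes detected on all arrays, which moved the median of all genes to -0.14. Relative to the median of all genes the 8 differences ran from -2.48 for Klf2 to -3.74 for Edn1. Both scalings shift all genes of an array alike, so these values are the same under either by construction. With quantile normalization they ran from -2.49 for Ece1 to -3.97 for Klf4. In embryo CD45- cells 0 of the 9 passed by limma (0 also at an unadjusted p under 0.05, against 1718 of all genes), where 1.29% of genes were called. There 5 had arrays that did not overlap, each lower in Tie-2-Etv2 samples, against 33.6% of all genes in either direction. The median difference was -0.44 over the 9 against -0.03 over all genes, and 1 of the 9, Egfl7, was above 0. Embryo CD45+ cells had 2 of the 9 called higher, Calcrl and Egfl7, where 2.31% of genes were called higher, and 7 did not overlap, against 43.3%. In yolk sac CD45+ cells Calcrl, Ramp2 and Egfl7 were called higher, where 18.1% of genes were, and Klf2, Klf4 and Nos3 lower, where 14.4% were, and all 9 did not overlap, against 65.7%. Of those 6 calls 3 were left without the second Tie-2-Etv2 array. In samples of many cells, fewer cells of a type and less RNA per cell cannot be told apart.

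Markers of several cell types also differed between genotypes. Of all genes 15.8% were called lower in yolk sac CD45- cells, and a larger share higher, as counted above. Lower calls of leukocyte (2 of 13) and erythroid markers (1 of 9) in those cells lie near or under that share. In yolk sac CD45+ cells 18.1% of all genes were called higher and 14.4% lower. In embryo CD45+ cells 2.31% were called higher, and in embryo CD45- cells 1.29% in either direction. In CD45- cells of the yolk sac 9 of 12 endothelial markers were lower and 0 higher in Tie-2-Etv2 samples (median -1.84), and their summed level went from between 9.92 and 10.11 on control arrays to between 7.87 and 8.36. Of 8 megakaryocyte markers 7 were higher, with summed levels of 2.46 to 2.91 in controls and 9.39 to 9.71 in Tie-2-Etv2 samples. Leukocyte and macrophage markers were higher in 5 and lower in 2 of 13 cases, with summed levels of 5.13 to 5.35 and 7.08 to 7.54, and 7 to 9 of the 13 were well above background on a control array against 10 to 11 on a Tie-2-Etv2 array. Mural and mesenchymal markers were lower in 5 of 11 cases and higher in 0, with summed levels of 7.19 to 7.26 and 5.52 to 5.95. In yolk sac CD45+ cells the endothelial list ran the other way, with 9 of 12 higher and 0 lower and summed levels of 4.71 to 5.05 in controls and 6.40 to 6.49 in Tie-2-Etv2 samples. Leukocyte and macrophage markers there were lower in 11 of 13 cases, from 10.65 to 11.01 in controls to 8.70 to 8.72. In embryo CD45+ cells 5 of 12 endothelial markers were higher and 0 lower, from 4.82 to 5.12 in controls to 5.58 to 6.01. All 12 endothelial markers were well above background on every array. Yolk sac endoderm markers had 0 of 10 called by limma in either yolk sac gate (2 in CD45- and 1 in CD45+ cells at an unadjusted p under 0.05), but all 10 fitted differences were below 0 in both, with medians of -1.72 and -1.29. Their summed levels went from 9.39 to 9.50 in CD45- controls to 6.61 and 9.26 on the Tie-2-Etv2 arrays, and in CD45+ cells from 8.12 and 9.69 to 6.90 and 8.32; replicates lay far apart except in CD45- controls. Of 9 erythroid markers 1 was higher and 1 lower in yolk sac CD45- cells (median -0.84) and 1 lower in yolk sac CD45+ cells (median -0.74). Megakaryocyte markers in yolk sac CD45+ cells were higher in 4 and lower in 3 of 8 cases, with summed levels of 8.85 to 9.34 in controls and 7.43 to 7.93. Mural and mesenchymal markers there were lower in 3 of 11 cases and higher in 1. In embryo CD45- cells, where none of the 9 genes was called, 4 of 8 megakaryocyte markers were higher and 0 lower. Their summed levels were 2.82 to 3.41 in controls and 7.67 to 8.24 in Tie-2-Etv2 samples. Fitted differences of the 12 endothelial markers there ran from -0.56 to 0.02 (median -0.32). The summed endothelial level was 9.52 to 9.61 in controls and 9.27 to 9.29 in Tie-2-Etv2 samples. The 9 erythroid markers had a median difference of 0.72 there, with summed levels of 8.42 to 9.41 in controls and 9.44 to 10.25. Leukocyte and macrophage markers had summed levels of 4.18 to 4.46 in controls and 4.96 to 5.22, but a median difference of -0.29. In embryo CD45+ cells 3 of 8 megakaryocyte markers were called higher, but the median difference of the list was -0.37. Its summed levels were 8.12 to 8.47 in controls and 7.51 to 7.72 in Tie-2-Etv2 samples. Leukocyte and macrophage markers had a median of -0.87 there, with summed levels of 10.77 to 10.86 in controls and 9.92 to 10.30 in Tie-2-Etv2 samples. The part of these shifts in the differences of the 9 genes was not tested.

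**Figure D1:**
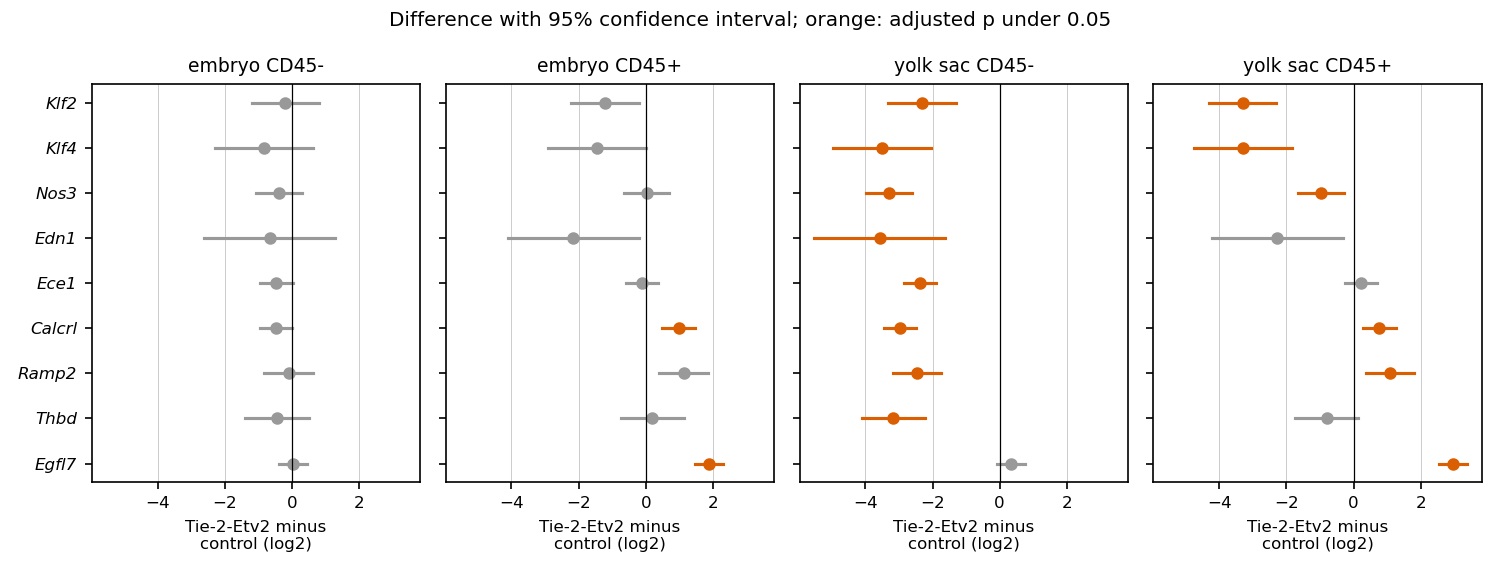
The horizontal axes give the difference, Tie-2-Etv2 minus control, on the log2 scale for each of the 9 genes in the 4 populations; points are fitted differences of 2 arrays against 2, bars their 95% confidence intervals, and orange marks an adjusted p under 0.05. In yolk sac CD45- cells 8 genes lie left of 0 in orange while Egfl7 lies at 0.34, and in yolk sac CD45+ cells Klf2 and Klf4 lie near -3.30 while Egfl7 lies at 2.96.

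Klf2 and Klf4 fell by over 2 on the log2 scale in both yolk sac populations. Nos3 was the other member called lower in both, but its CD45+ call was lost under several alternatives. The array read Klf2 with 1 probe at chr8:74845137-74845196 and Klf4 with 1 probe at chr4:55540167-55540226 (mm9, plus and minus strand). The files name the transcripts of the probes but not the exon or UTR they lie in. Because the pair moved together, the 250 bases before their transcription starts are shown, from RefSeq on GRCm38.p6 (6 of the 9 members were matched in its promoter table). Capitals mark matches on either strand to CACCC, the box that KLF factors read, to GGAAG, a core of ETS sites, or to the MEF2 consensus of 10 letters. The Klf2 stretch, chr8:72318812-72319061 on the plus strand, holds 1 MEF2 match and 1 CACCC box, and the Klf4 stretch, chr4:55532476-55532725 on the minus strand, holds 1 GGAAG and neither of the others. No marked matches overlap each other.
Klf2: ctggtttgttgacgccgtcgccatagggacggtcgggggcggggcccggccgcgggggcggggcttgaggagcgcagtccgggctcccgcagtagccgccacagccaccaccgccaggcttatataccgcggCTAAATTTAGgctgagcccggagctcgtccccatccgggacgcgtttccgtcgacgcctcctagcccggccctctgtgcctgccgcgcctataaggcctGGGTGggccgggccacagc
Klf4: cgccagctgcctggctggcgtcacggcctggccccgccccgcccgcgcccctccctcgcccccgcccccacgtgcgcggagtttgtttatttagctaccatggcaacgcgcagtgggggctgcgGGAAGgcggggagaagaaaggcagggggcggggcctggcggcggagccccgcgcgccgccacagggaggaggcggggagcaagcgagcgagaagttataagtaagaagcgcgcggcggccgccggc
Of 32851 windows of this length in the table, 2.92% hold a MEF2 match, 52.0% a CACCC box and 64.1% a GGAAG, so the MEF2 match of Klf2 is the least common kind. A match is a description of the letters, not a binding site.

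Klf2 overlapped between genotypes in embryo CD45- cells, at 5.80 and 5.27 on the control arrays and 5.66 and 5.01 on the Tie-2-Etv2 arrays. In embryo CD45+ cells it stood at 6.64 and 6.13 in controls and at 5.25 and 5.07 in Tie-2-Etv2 samples. The 2 ranges do not overlap there, but the difference of -1.22 ± 0.45 was not called (adjusted p = 0.201). Yolk sac CD45- levels were 6.87 and 6.62 against 4.22 and 4.65, and in yolk sac CD45+ cells 7.50 and 6.05 against 3.10 and 3.84. Both Tie-2-Etv2 arrays were thus below both control arrays in each yolk sac gate. The differences were -2.31 ± 0.45 (4.96-fold, adjusted p = 0.00238) and -3.30 ± 0.45 (9.87-fold, adjusted p = 0.000362). The control arrays of the yolk sac CD45+ gate were far apart, and the difference there was -2.58 without the first and -4.03 without the second.

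Klf4 had its widest replicate gap in embryo CD45- controls, at 6.21 and 4.14, with Tie-2-Etv2 arrays at 5.13 and 3.57 inside or just below that range. In embryo CD45+ cells the levels were 4.76 and 4.28 against 3.38 and 2.74, apart from each other but with a difference of -1.46 ± 0.66 that was not called (adjusted p = 0.306). The yolk sac showed a wide gap in both gates. Levels were 5.96 and 5.94 against 2.22 and 2.66 in CD45- cells, and 5.62 and 4.67 against 2.03 and 1.69 in CD45+ cells. The differences were -3.51 ± 0.66 (11.4-fold, adjusted p = 0.00182) and -3.29 ± 0.66 (9.79-fold, adjusted p = 0.00328). Over the 8 groups the lowest means of both genes were those of the yolk sac Tie-2-Etv2 groups, CD45+ below CD45-, with arrays that do not overlap. For Klf2 the 3 highest means were those of yolk sac CD45+, yolk sac CD45- and embryo CD45+ controls, whose arrays overlap from one to the next. For Klf4 the 5 highest means overlap in the same chained way. Across the 8 group means, which share arrays and scaling with every other gene, the pair correlated at r = 0.908.

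Nos3, which makes nitric oxide in endothelium, fell in the yolk sac and differed little in the embryo. Its brighter probe, at chr5:23890038-23890097 (mm9), stands for the gene, and a second lies 342 bases before it at chr5:23889636-23889695. In embryo CD45- cells Nos3 stood at 5.66 and 6.05 in controls and 5.39 and 5.56 in Tie-2-Etv2 samples, ranges that do not overlap, with a difference of -0.39 ± 0.30 (adjusted p = 0.976). Yolk sac CD45- cells stood at 6.48 and 6.18 against 2.65 and 3.42. The difference of -3.30 ± 0.30 was 9.83-fold (adjusted p = 2.72e-05), and on the second probe it was -3.59 ± 0.32, or 12.1-fold (adjusted p = 2.40e-05). CD45+ cells were far lower in every group. In the embryo they stood at -0.09 and 0.02 in controls against -0.18 and 0.16, which overlap. In the yolk sac they stood at 0.14 and 0.82 against -0.67 and -0.29, a difference of -0.97 ± 0.30 (adjusted p = 0.0329). That last call was lost with quantile normalization (adjusted p = 0.0534), without a filter on dim probes (adjusted p = 0.0555), on the yolk sac slide alone (adjusted p = 0.0866), on the 4 arrays alone (adjusted p = 0.123), without either Tie-2-Etv2 array (adjusted p = 0.189 and 0.0555) and without the second control array, where the difference was -0.62 (adjusted p = 0.199). The second probe gave -1.15 ± 0.32 there (adjusted p = 0.0198). In order, the 4 CD45- groups came first, with yolk sac Tie-2-Etv2 cells the lowest of them, and neighbours among them do not overlap.

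Edn1 and Ece1 supply the opposing, constricting signal. Edn1 (probe at chr13:42403101-42403160, mm9) had the widest SE of the 9. In embryo CD45- cells it stood at 4.80 and 3.09 in controls and 3.86 and 2.71 in Tie-2-Etv2 samples, which overlap. In embryo CD45+ cells the control arrays were at 3.40 and 0.39 and the Tie-2-Etv2 arrays at 0.30 and -0.83. The difference of -2.15 ± 0.88 was not called (adjusted p = 0.252); it was -0.65 without the first control array and -3.66 without the second (adjusted p = 0.0286). Yolk sac CD45- cells gave 4.34 and 4.01 against 0.63 and 0.60, with replicates close together and far apart between genotypes. The difference of -3.57 ± 0.88 was 11.8-fold (adjusted p = 0.00833). Yolk sac CD45+ cells gave -1.47 and -0.87 against -3.09 and -3.79, a difference of -2.27 ± 0.88 that missed the threshold (adjusted p = 0.0741) and passed on the yolk sac slide alone (adjusted p = 0.00376) and on the 4 arrays alone (adjusted p = 0.031). With normexp it was -1.17 (adjusted p = 0.263).

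Ece1 (probe at chr4:137519606-137519665, mm9) kept its replicates close. In embryo CD45- cells it stood at 1.44 and 1.17 in controls and 0.96 and 0.73 in Tie-2-Etv2 samples, with no overlap and a difference of -0.46 ± 0.22 (adjusted p = 0.752). Yolk sac CD45- cells stood at 1.73 and 1.18 against -1.13 and -0.71, the widest gap of the 4 populations. The difference was -2.38 ± 0.22, or 5.19-fold (adjusted p = 2.67e-05). CD45+ levels were low in both genotypes, at -2.31 and -2.39 against -2.51 and -2.43 in the embryo and at -2.26 and -2.19 against -2.13 and -1.88 in the yolk sac. The differences there were -0.12 (95% confidence interval -0.60 to 0.37) and 0.22 (-0.26 to 0.71), neither called. From high to low, the CD45- groups preceded all CD45+ groups, and of the neighbouring groups only the yolk sac and embryo CD45- controls overlap.

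Calcrl and Ramp2, the receptor and accessory subunit of the adrenomedullin receptor, moved in opposite directions in the 2 yolk sac gates. Calcrl (probe at chr2:84173073-84173132, mm9, minus strand) stood at -0.10 and -0.01 in embryo CD45- controls and at -0.59 and -0.47 in Tie-2-Etv2 samples, a difference of -0.47 ± 0.22 (adjusted p = 0.74). Yolk sac CD45- cells stood at 2.00 and 1.85 against -1.37 and -0.71, a difference of -2.97 ± 0.22, or 7.81-fold (adjusted p = 6.60e-06). The CD45+ groups moved upward from a low level. In the embryo they gave -3.66 and -3.55 in controls against -2.71 and -2.54, a difference of 0.98 ± 0.22 (adjusted p = 0.0412). In the yolk sac they gave -2.85 and -2.49 against -1.98 and -1.83, a difference of 0.76 ± 0.22 (adjusted p = 0.0216). Tie-2-Etv2 arrays were above control arrays in both, yet both calls were lost under several alternatives. With normexp background correction they were 0.37 (adjusted p = 0.265) and 0.30 (adjusted p = 0.179), and both were lost with scaling on detected probes, on the slide alone and on the 4 arrays alone (adjusted p = 0.0599 to 0.241), the embryo call also without a filter on dim probes (adjusted p = 0.0784). In the embryo the call was also lost when any 1 of the 4 arrays was left out (adjusted p = 0.0776 to 0.291), and in the yolk sac without the first control array or either Tie-2-Etv2 array (adjusted p = 0.0639 to 0.132).

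Ramp2 (probe at chr11:101109501-101109560, mm9) differed little in embryo CD45- cells, at 7.46 and 7.48 in controls and 7.34 and 7.39 in Tie-2-Etv2 samples, a difference of -0.10 (95% confidence interval -0.82 to 0.61). Yolk sac CD45- cells stood at 8.12 and 7.80 against 5.14 and 5.89, a difference of -2.45 ± 0.32, or 5.46-fold (adjusted p = 0.000229). As for Calcrl, the CD45+ groups lay higher with the transgene. They gave 0.46 and 1.08 against 1.65 and 2.14 in the embryo, a difference of 1.12 ± 0.32 that was not called (adjusted p = 0.0995). In the yolk sac they gave 1.58 and 1.34 against 2.19 and 2.89, a difference of 1.08 ± 0.32 (adjusted p = 0.0262). That call was lost with quantile normalization (adjusted p = 0.0502), with scaling on detected probes (adjusted p = 0.0506), on the yolk sac slide alone (adjusted p = 0.0575), on the 4 arrays alone (adjusted p = 0.0919), and without either control array or the second Tie-2-Etv2 array (adjusted p = 0.0579 to 0.193). For Calcrl and Ramp2 alike, the order of groups ran from yolk sac CD45- controls at the top to embryo CD45+ controls at the bottom, and of the neighbours only embryo CD45+ Tie-2-Etv2 and yolk sac CD45+ control cells overlap, for Calcrl.

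Thbd, the endothelial brake on clotting (probe at chr2:148230235-148230294, mm9, minus strand), was highest in yolk sac CD45- controls. Embryo CD45- cells gave 3.73 and 3.15 in controls and 3.11 and 2.88 in Tie-2-Etv2 samples, with no overlap and a difference of -0.44 ± 0.42 (adjusted p = 0.997). Yolk sac CD45- cells gave 5.59 and 5.55 against 1.98 and 2.82. The difference was -3.17 ± 0.42 (adjusted p = 0.000246). CD45+ arrays overlapped between genotypes in the embryo, at -0.27 and 0.46 against -0.08 and 0.66. In the yolk sac they stood at 1.48 and 0.71 against -0.11 and 0.69, apart from each other by little and with a difference of -0.81 ± 0.42 (adjusted p = 0.179).

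Egfl7 was called lower with the transgene in no population. Its probe lies at chr2:26448142-26448201 (mm9). CD45- cells were close in all 4 groups: 8.73 and 8.65 in embryo controls, 8.63 and 8.80 in embryo Tie-2-Etv2 samples, 8.61 and 8.50 in yolk sac controls and 8.93 and 8.85 in yolk sac Tie-2-Etv2 samples. The yolk sac difference was 0.34 ± 0.19 (95% confidence interval -0.09 to 0.76, adjusted p = 0.188), and -0.02 with quantile normalization. CD45+ cells changed most. In the embryo they stood at 5.60 and 5.11 in controls against 7.04 and 7.44, a difference of 1.89 ± 0.19 or 3.69-fold (adjusted p = 0.000591). In the yolk sac they stood at 5.18 and 5.25 against 8.21 and 8.14, a difference of 2.96 ± 0.19 or 7.76-fold (adjusted p = 8.48e-06). Both Tie-2-Etv2 arrays were above both controls in each case. The embryo call was lost on the 4 arrays alone (adjusted p = 0.149), where 0 genes of all passed by limma, and the yolk sac call was kept under each alternative. Egfl7 has 3 starts in the RefSeq table (GRCm38.p6). The 250 bases before the second, chr2:26583615-26583864 on the plus strand, are shown because they hold both kinds of box: 2 GGAAG and 2 CACCC, in capitals and without overlap, against 4 and 0 before the first start and 0 and 0 before the third. Both kinds are common, with a GGAAG in 64.1% and a CACCC box in 52.0% of all windows. Which start these cells use was not measured.
Egfl7: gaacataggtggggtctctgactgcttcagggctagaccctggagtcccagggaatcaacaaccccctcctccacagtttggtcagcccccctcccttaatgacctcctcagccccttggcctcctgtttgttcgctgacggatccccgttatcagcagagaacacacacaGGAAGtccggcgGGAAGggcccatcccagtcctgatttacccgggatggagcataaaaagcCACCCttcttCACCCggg
The gene spans chr2:26581083-26592682 and the miR-126 hairpin lies inside it at chr2:26591357-26591429. The mature strand miR-126a-3p is shown with its seed, bases 2 to 8, in capitals.
miR-126a-3p: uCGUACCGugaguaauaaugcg
The array files hold 0 probes named for miR-126, so its level was not measured here.

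**Figure D2:**
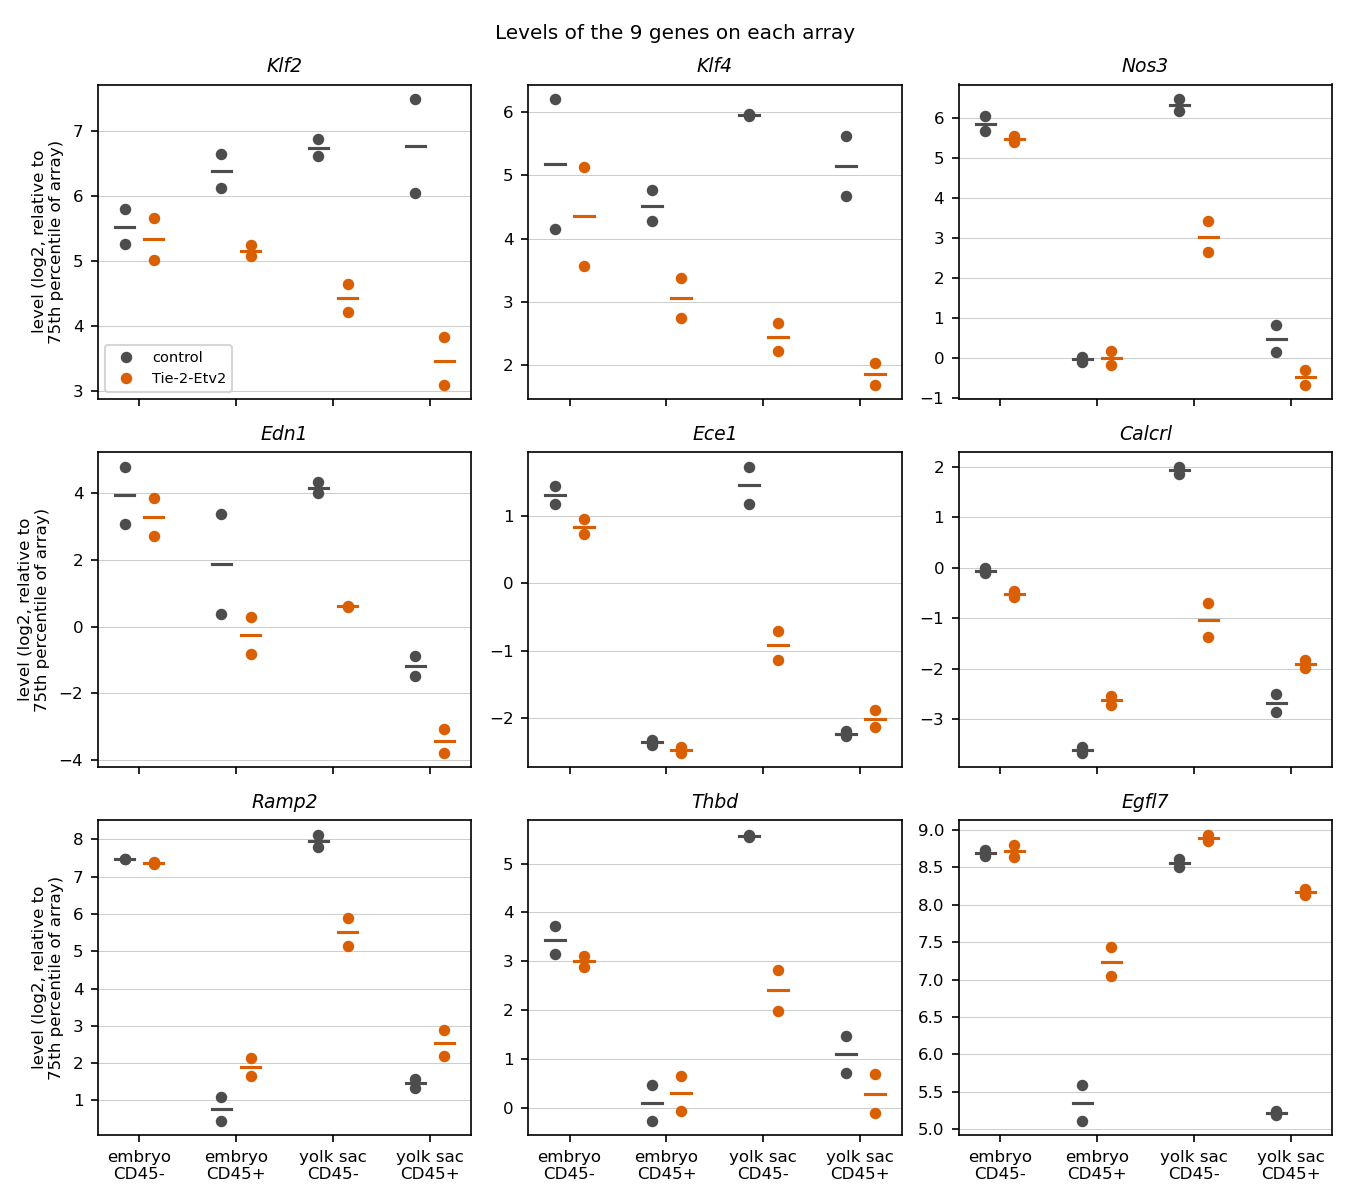
Each panel plots 1 gene: the vertical axis is the log2 level relative to the 75th percentile of the array, on its own scale in each panel, points are single arrays, short lines group means of 2 arrays, and the horizontal axis gives the 4 populations with control in grey and Tie-2-Etv2 in orange. For Klf2 and Klf4 no gate comparison was called, whereas Nos3 and Ramp2 drop steeply in CD45+ cells, and Egfl7 rises in CD45+ cells of Tie-2-Etv2 samples from 5.18 and 5.25 to 8.21 and 8.14 in the yolk sac.

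Whether the genotype difference itself varied with tissue or gate was tested as a contrast of the same fit. Between yolk sac and embryo CD45- cells it differed for 6 of the 9 genes, all more negative in the yolk sac, where 6.39% of all genes were called in that direction. Over all genes the split was 2342 higher and 1572 lower, 1033 and 2221 with scaling on detected probes, and 1622 and 1747 with quantile normalization. The contrasts were -2.11 ± 0.64 for Klf2, -2.91 ± 0.43 for Nos3, -1.91 ± 0.31 for Ece1, -2.49 ± 0.31 for Calcrl, -2.35 ± 0.46 for Ramp2 and -2.73 ± 0.60 for Thbd. The Klf2 call (adjusted p = 0.0488) was lost without a filter on dim probes (adjusted p = 0.0813), with 1 row per probe (adjusted p = 0.0522) and when any 1 of the 8 arrays was left out (adjusted p = 0.0611 to 0.16). The Thbd call was lost without the first embryo Tie-2-Etv2 array, either yolk sac control array or the first yolk sac Tie-2-Etv2 array (adjusted p = 0.0503 to 0.0651). The contrast for Klf4, -2.68 ± 0.93, was not called (adjusted p = 0.0759; 0.0379 with quantile normalization and 0.0419 with normexp; -3.72, adjusted p = 0.0186, and -1.65, adjusted p = 0.179, without the first and the second embryo control array), nor was that for Edn1, -2.90 ± 1.24 (adjusted p = 0.138). Between yolk sac and embryo CD45+ cells 0 of the 9 passed by limma (3 at an unadjusted p under 0.05, and 4561 of all genes), where 3.13% of genes were called (207 higher and 634 lower with scaling on detected probes, against 270 and 500). Egfl7 came nearest, at 1.07 ± 0.27 (adjusted p = 0.0651), and passed with normexp, the strict filter, the trended prior or without the second embryo control array (adjusted p = 0.0178 to 0.0409). Klf2 was at -2.08 ± 0.64 (adjusted p = 0.113), at -1.36 without the first yolk sac CD45+ control array (adjusted p = 0.249) and at -2.81 without the second (adjusted p = 0.0189).

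Between the gates of the yolk sac the genotype difference was more positive in CD45+ cells for 6 genes, where 7.89% of all genes were called in that direction (2497 higher and 2002 lower with scaling on detected probes, against 1941 and 2580). The contrasts were 2.33 ± 0.43 for Nos3, 2.60 ± 0.31 for Ece1, 3.73 ± 0.31 for Calcrl, 3.53 ± 0.46 for Ramp2, 2.37 ± 0.60 for Thbd and 2.62 ± 0.27 for Egfl7. For Calcrl and Ramp2 both effects were called, with opposite signs. The Thbd call was lost without any 1 of 5 arrays (adjusted p = 0.0593 to 0.0802). For Klf2 (-0.99 ± 0.64, adjusted p = 0.353) and Klf4 (0.22 ± 0.93, adjusted p = 0.915) no difference between gates was called, with 95% confidence intervals of -2.41 to 0.43 and -1.84 to 2.28. In the embryo the gates differed for 1 gene, Egfl7, at 1.86 ± 0.27 (adjusted p = 0.0072), where 0.565% of genes were called higher; it was lost on the embryo slide alone (adjusted p = 0.115). Calcrl followed at 1.45 ± 0.31, not called (adjusted p = 0.0604), and passed with quantile normalization or the strict filter (adjusted p = 0.0373 and 0.0485).

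**Figure D3:**
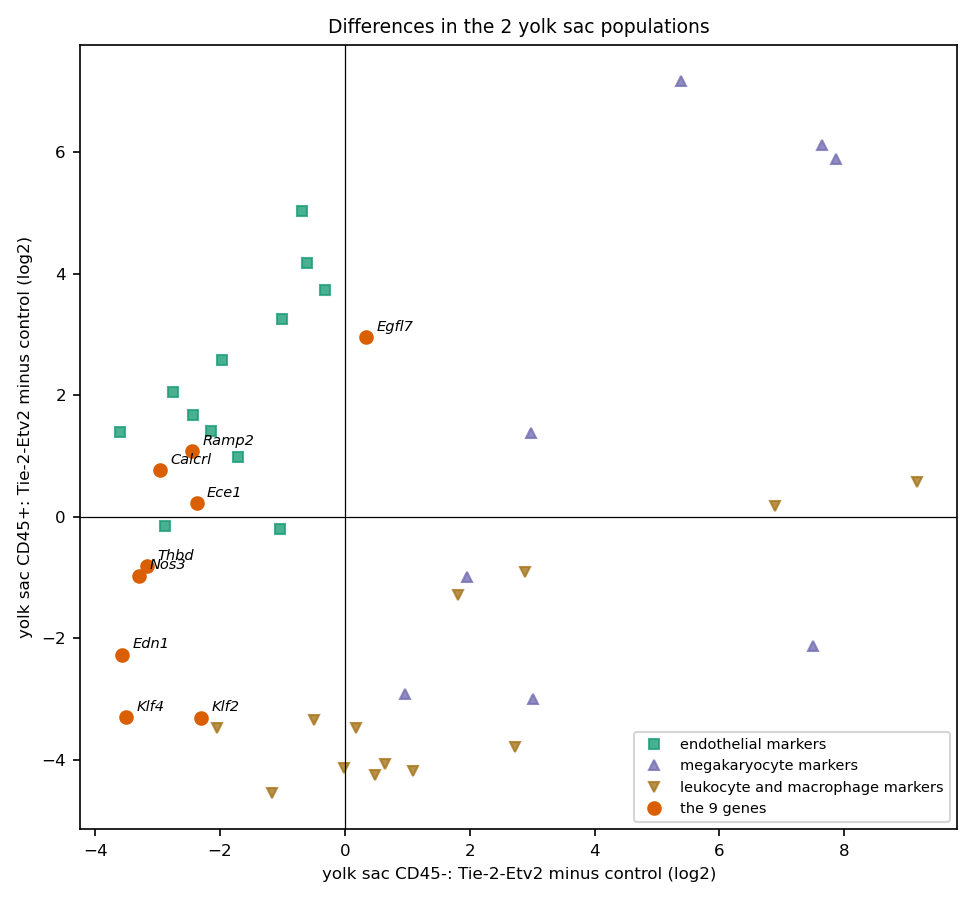
The horizontal axis gives the log2 difference, Tie-2-Etv2 minus control, in yolk sac CD45- cells and the vertical axis the same in yolk sac CD45+ cells; points are the 9 genes and the genes of 3 marker lists. Klf2, Klf4 and Edn1 lie low on both axes, Calcrl and Ramp2 lie left of and above 0, and Egfl7 lies at 0.34 and 2.96.

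The gates were then compared within each tissue and genotype. Nos3, Ece1, Calcrl, Ramp2, Thbd and Egfl7 were lower in CD45+ than in CD45- cells in all 4 comparisons, whereas Klf2 and Klf4 were called in none. In embryo controls these 6 were called lower, where 16.6% of genes were called lower (4049 higher and 5135 lower with scaling on detected probes, against 4903 and 4089). Ramp2 differed by -6.70 ± 0.32 (104-fold), Nos3 by -5.89 ± 0.30 (59.3-fold), Ece1 by -3.66 ± 0.22, Calcrl by -3.55 ± 0.22, Thbd by -3.34 ± 0.42 and Egfl7 by -3.34 ± 0.19. With normexp the values of Ece1 and Calcrl were -2.72 and -2.10. Edn1 was not called there, at -2.06 ± 0.88 (adjusted p = 0.0955), and its value rested on single arrays. It was -3.56 without the first CD45+ control array (adjusted p = 0.00531), -0.55 without the second (adjusted p = 0.614) and -1.20 without the first CD45- control array (adjusted p = 0.409). Klf2 differed by 0.85 (95% confidence interval -0.15 to 1.86) and Klf4 by -0.65 (-2.11 to 0.80).

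In yolk sac controls 7 of the 9 genes were lower in CD45+ cells, Edn1 among them, where 15.8% of genes were called lower (3951 higher and 5062 lower with scaling on detected probes, against 5555 and 3881). Ramp2 differed by -6.50 ± 0.32 (90.6-fold), Nos3 by -5.85 ± 0.30, Edn1 by -5.35 ± 0.88, Calcrl by -4.60 ± 0.22 and Thbd by -4.48 ± 0.42. Ece1 and Egfl7 followed at -3.68 ± 0.22 and -3.34 ± 0.19. With normexp Ece1 was at -2.68 and Calcrl at -3.46. Klf2 stood at 0.03 (95% confidence interval -0.98 to 1.03) and Klf4 at -0.80 (-2.26 to 0.65).

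The same 7 genes were lower in CD45+ cells of both Tie-2-Etv2 tissues. In the embryo, where 13.9% of genes were called lower (3204 higher and 4243 lower with scaling on detected probes, against 4028 and 3414), the differences ran from -1.48 for Egfl7 to -5.48 for Nos3, and that of Calcrl, -2.10, was -1.35 with normexp. The Edn1 call there, -3.55 ± 0.88 (adjusted p = 0.0111), was lost on the embryo slide alone (adjusted p = 0.0575) and without the first CD45- or the second CD45+ array (adjusted p = 0.0852 and 0.0829). In the yolk sac, where 5.92% of genes were called lower, the gate differences were -0.72 for Egfl7, -0.87 for Calcrl, -1.08 for Ece1, -2.11 for Thbd, -2.97 for Ramp2, -3.52 for Nos3 and -4.05 for Edn1. With normexp Edn1 was at -2.55 and Ece1 at -0.67. Of these 7 calls 3 held on the 4 arrays alone, 2 without the second CD45- array, and 3 and 4 without the first and the second CD45+ array; those of Nos3 and Ramp2 were kept under each alternative.

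Yolk sac and embryo were compared within each gate and genotype. In CD45- controls Calcrl and Thbd were higher in the yolk sac, where 5.45% of genes were called higher. Calcrl differed by 1.98 ± 0.22 (3.95-fold, adjusted p = 0.000492) and Thbd by 2.13 ± 0.42 (4.38-fold, adjusted p = 0.011), the latter lost without the second embryo array or either yolk sac array (adjusted p = 0.0548 to 0.0683). Nos3 differed by 0.47 (95% confidence interval -0.20 to 1.15) and Egfl7 by -0.14 (-0.56 to 0.29). In Tie-2-Etv2 CD45- cells 5 genes were lower in the yolk sac, where 12.5% of genes were called lower (2550 higher and 4328 lower with scaling on detected probes, against 4424 and 3074). These were Nos3 at -2.44 ± 0.30, Ece1 at -1.76 ± 0.22, Ramp2 at -1.85 ± 0.32, Klf4 at -1.91 ± 0.66 and Edn1 at -2.67 ± 0.88. The last 2 were near the threshold (adjusted p = 0.0495 and 0.0418): both were lost without a filter on dim probes, Klf4 was -1.13 without the first embryo array and -2.69 without the second, and Edn1 was lost when any 1 of the 4 arrays was left out (adjusted p = 0.0706 to 0.215). The Klf4 call was also lost with 1 row per probe (adjusted p = 0.0522), on the 4 arrays alone (adjusted p = 0.0788) and without either yolk sac array (adjusted p = 0.21 and 0.094).

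In CD45+ controls 0 of the 9 genes passed between tissues by limma (3 at an unadjusted p under 0.05, and 3263 of all genes), where 1.71% of genes were called. Edn1 showed the widest gap there, -3.06 ± 0.88 (adjusted p = 0.128), which was -1.56 without the first embryo control array (adjusted p = 0.507) and -4.57 without the second (adjusted p = 0.0186). In Tie-2-Etv2 CD45+ cells 3 genes were called, 1 higher and 2 lower, where 5.26% and 7.29% of all genes were (950 higher and 2308 lower with scaling on detected probes, against 1294 and 1792). Egfl7 was higher in the yolk sac by 0.93 ± 0.19 (adjusted p = 0.0126), Klf2 differed by -1.70 ± 0.45 (adjusted p = 0.0365) and Edn1 by -3.17 ± 0.88 (adjusted p = 0.0415). The Klf2 and Edn1 calls were lost without a filter on dim probes and when any 1 of the 4 arrays was left out, that of Klf2 also on the 4 arrays alone (adjusted p = 0.0522), and the Egfl7 call on the 4 arrays alone (adjusted p = 0.0676) and without the first embryo array or either yolk sac array (adjusted p = 0.0598 to 0.131). With normexp Edn1 was -1.83 (adjusted p = 0.131).

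Other genes of the same pathways were read from 9 lists written by role, leaving out the 9 members. These genes too were chosen with earlier results of these data known. In yolk sac CD45- cells 15.8% of all genes were called lower, and a larger share higher. With the 9 set aside, in CD45- cells of the yolk sac the list of genes known to be induced by laminar flow, Klf2 or Klf4 had 20 of 28 lower and 1 higher with the transgene, at a median of -1.72 against 0.18 over all genes. Plat, the tissue plasminogen activator, differed by -4.25 ± 0.84, Slco2a1, a prostaglandin transporter, by -3.95 and Cav1, the caveolar coat protein that binds Nos3, by -3.86. Ccn3, a matricellular protein, was at least 14.2-fold lower: it was not well above background on Tie-2-Etv2 arrays, and the bound is the control mean over the lowest signal well above background, or the gene's own where higher. Genes known to be repressed by flow had more calls lower than higher: 5 of 16 were lower and 1 higher (median -0.53), with F3, tissue factor, at -4.93, the matricellular Ccn2 and Ccn1 at -4.39 and -3.96 and Selp, P-selectin of endothelium and platelets, at 4.51. Of 26 genes of flow sensing and the MEKK3-ERK5-MEF2 cascade 13 were lower and 5 higher (median -0.57). Trpv4, a calcium channel, differed by -3.41, Heg1, an endothelial receptor, by -2.35, the G protein subunit Gna11 by -2.25 and the GTPase Rap1b by 2.20. This list shares Kdr, Pecam1 and Cdh5 with the endothelial markers, and the flow-induced list shares Tek. Some genes are counted in more than 1 pathway list, among them Cav1, Klf6, Plat and F3.

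The vasoactive lists were read in yolk sac CD45- cells, where 6407 of the 24589 genes were called higher and 3883 lower. Of 6 further endothelin genes 5 were lower and 0 higher (median -2.15). Edn2, the second endothelin, differed by -7.01, the receptors Ednra and Ednrb by -2.32 and -1.98, and Mme, neprilysin, which degrades the peptide, was at least 3.19-fold lower. Of 24 nitric oxide genes 8 were higher and 7 lower (median 0.33), Cav1 among the lower ones. Gucy1a1, a subunit of the guanylate cyclase that nitric oxide activates, differed by 3.69, while its paralog Gucy1a2 was at least 10.7-fold lower and Arg1, arginase, well above background on 1 of 2 control arrays and on 0 Tie-2-Etv2 arrays, at least 1.79-fold lower. Of 6 adrenomedullin and CGRP genes 1 was higher, Crcp at 0.71, and 1 lower, the scavenger receptor Ackr3 at -3.59. Of 19 anticoagulant and fibrinolytic genes 11 were lower and 1 higher (median -1.58), with Hs3st1, which modifies heparan sulfate for antithrombin, at -3.97 and Procr, the protein C receptor, at -3.43. That list also holds F3, which starts clotting rather than restrains it, and the thrombin receptors F2r and F2rl3. Of 29 other vasoactive genes 12 were lower and 5 higher (median -0.79). The thromboxane synthase Tbxas1 differed by 4.28, the prostacyclin receptor Ptgir was at least 40.4-fold and the prostaglandin receptor Ptger2 at least 4.97-fold higher, and the angiotensin receptor Agtr1a was at least 4.12-fold lower. Of 15 other Klf genes 5 were lower and 0 higher (median -0.31), with Klf5 at -3.55, Klf12 at -3.14, Klf14 at -2.55 and Klf6 at -1.68.

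In yolk sac CD45+ cells, where 18.1% of all genes were called higher and 14.4% lower, flow-induced genes had 8 of 28 higher and 5 lower (median -0.18), with Tek at 5.02, Hmox1, heme oxygenase 1, at -3.23 and Plat at least 2.73-fold lower from 1 of 2 control arrays well above background. Flow sensing genes had 6 of 26 higher and 10 lower (median -0.13), with Mef2a at -4.43, Trpv4 at -3.53 and Flt4, a VEGF receptor, at least 7.76-fold higher. Flow-repressed genes had 3 of 16 each way (median -0.25), with Ccn1 at -4.41, the chemokine Ccl2 at -4.01 and Selp at 2.55. Endothelin genes had 3 of 6 lower and 0 higher (median -1.98), with Ednrb at -4.01, Ednra, well above background on 1 of 2 Tie-2-Etv2 arrays, at -2.64 and Edn2 at least 1.71-fold lower from 1 control array. Adrenomedullin and CGRP genes had 3 of 6 higher and 1 lower (median 0.99), with Ramp3, another accessory subunit, at 4.09, Calca, the CGRP and calcitonin precursor, at least 1.22-fold higher and Ackr3 at -2.15. Nitric oxide genes had 6 of 24 higher and 3 lower (median 0.17), with Gucy1a1 at 3.04, Gucy1b1, its partner subunit, at 2.75 and Arg1, well above background on 1 of 2 Tie-2-Etv2 arrays, at -3.95. Anticoagulant and fibrinolytic genes had 2 of 19 higher and 6 lower (median -0.84), with the thrombin receptors F2r and F2rl3 at 4.78 and 4.22 (F2rl3 well above background on 1 of 2 control arrays) and Plau, urokinase, at -3.27. Other vasoactive genes had 6 of 29 higher and 5 lower (median -0.35), with Tbxas1 at -4.01, the thromboxane receptor Tbxa2r at 3.65 and Ptger2 at 3.51. Other Klf genes had 1 of 15 higher and 3 lower (median -0.16), with Klf6 at -2.34 and Klf15 at least 2.96-fold lower. Klf14 was among the lower calls but not well above background in either genotype.

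The embryo had fewer calls in these lists than the yolk sac. Of all genes 1.29% were called in embryo CD45- cells, in either direction, and 2.31% were called higher in embryo CD45+ cells. In CD45- cells Gucy1a1 differed by 2.34, Tbxas1 by 1.89 and Ptgs1, cyclooxygenase 1, by 1.00, all higher with the transgene, and Slc7a2 was called while not well above background in either genotype; the other 7 lists had 0 called by limma (12 of their 111 genes at an unadjusted p under 0.05). In CD45+ cells 3 of 26 flow sensing genes were higher (Cdh5 at 1.99, Pecam1 at 1.28 and Flt4 at least 2.64-fold), as were 3 of 28 flow-induced genes (Tek at 3.51, the gap junction gene Gja4 at 1.73 and Ccn3 at least 1.17-fold, from 1 Tie-2-Etv2 array well above background). Thbs1, thrombospondin 1, at 2.44, F2rl3 at 2.63 and Tbxa2r at 2.99 were the other higher calls, and Entpd1, which degrades extracellular ATP, at -1.20 and Tbxas1 at -1.66 the lower ones. The Klf family, nitric oxide, endothelin and adrenomedullin lists had 0 called there by limma (10 of their 51 genes at an unadjusted p under 0.05).

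**Figure D4:**
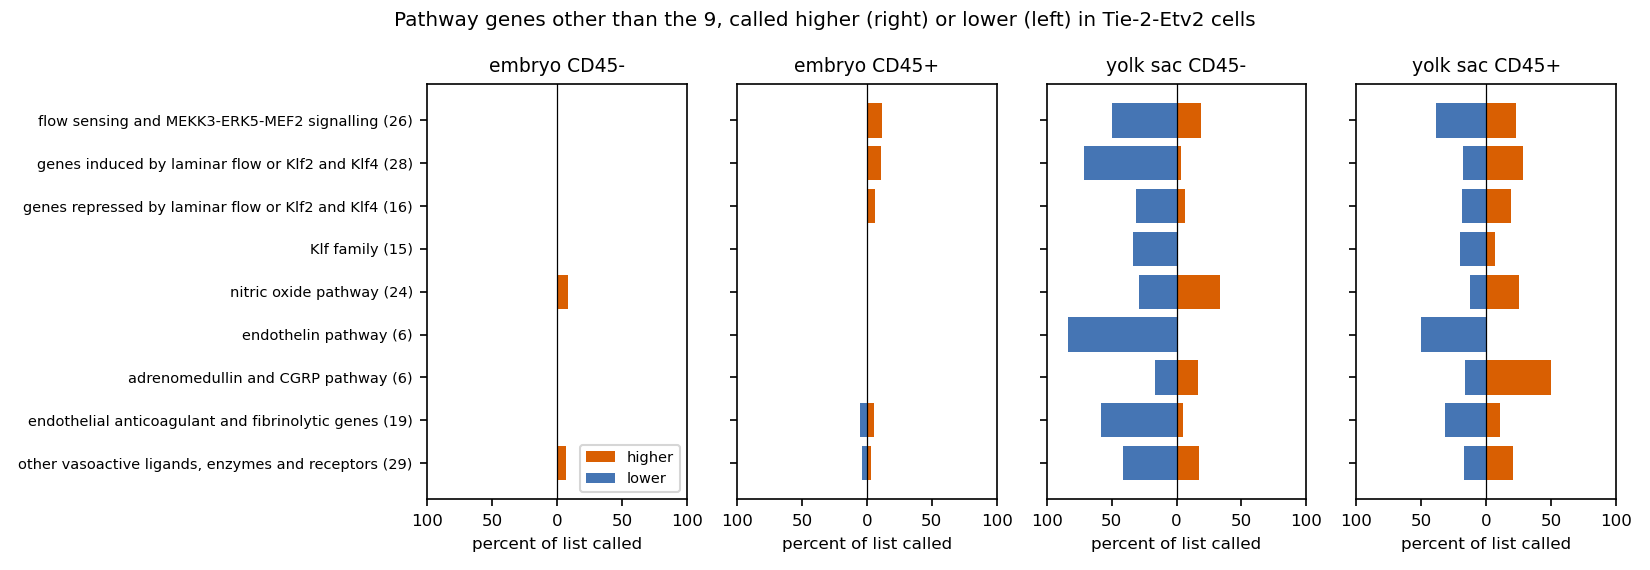
Bars give the percent of each pathway list, members left out and the number tested in brackets, called higher (orange, to the right) or lower (blue, to the left) in Tie-2-Etv2 samples of the 4 populations; the scale runs to 100 on both sides. In yolk sac CD45- cells 20 of 28 flow-induced and 5 of 6 endothelin genes were called lower, where 15.8% of all genes were.

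The genes most like each member over the 8 group means were found by Pearson's r among all genes with a symbol, as a description: the 8 means share arrays and scaling, and the steep drop from CD45- to CD45+ cells alone gives many genes a high r. Genes close to Nos3 included Fkbp10 (r = 0.9995) and Igf2 (0.9981), and Ece1 was closest to Unc45b (0.9993), Snrk (0.9963) and Fam171a1 (0.9956). Ramp2 was closest to Mmrn2 (0.9986), She (0.9958) and Sox17 (0.9957). Calcrl was closest to Trim46 (0.9966), Lmo7 (0.9856) and Procr (0.9817), and Thbd to Mirg (0.9981), Kdelr3 (0.9952) and AU021092 (0.9943). Klf2 was closest to Cep295nl (0.9901), Laptm4a (0.9853) and Kifc3 (0.9821), and Klf4 to Cd99l2 (0.989), Zfyve1 (0.989) and Sfxn3 (0.985). Edn1 was closest to Hoxc10 (0.9921), Bach2 (0.9886) and Gm13889 (0.988), and Egfl7 to Egfl8 (0.998), Shank3 (0.9971) and Mtbp (0.995). Among the members, Nos3 and Ece1 were the closest pair (r = 0.986), followed by Ece1 and Ramp2 (0.972), and Klf2 and Egfl7 the most opposed (r = -0.519).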

How the data were processed

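Samples were grouped by their titles and genotype labels. The scanner files hold spot intensities from Agilent Feature Extraction 10.7, per the submitters' processing notes; per the file headers, these intensities were corrected within each array by spatial and multiplicative detrending, with no step between arrays. The deposited value table holds log2 values, found by comparison with the scanner values to be centred on the median of each probe within tissue and gate (correlation of array differences at least 0.999975), in the same direction; its column medians ran from -0.183 to 0.175, and how the authors scaled it is not stated. It was an alternative for the genotype comparisons only.

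Replicate spots were averaged without control spots and outliers (87 probes lost), and each array's 75th percentile was subtracted from its log2 intensities to give levels. Kept were 34126 probes that some group had well above background on both of its arrays, and the brightest stood for its gene. Of 55594 probes, 26539 were named by RefSeq accession, 2596 by symbol, 491 by synonym and 25968 not at all; the RefSeq table (GRCm38.p6) gave names only. Coordinates of probes are mm9, as in the files.

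Group means of all 16 arrays entered 1 limma fit (version 3.58.1, R 4.3.3, eBayes, 8 residual and 2.29 prior degrees of freedom), two-sided, with Benjamini-Hochberg adjusted p-values at 0.05; all p-values are limma's. The script was tested on simulated data. Figures and sequences used Python 3.11.15 with pandas 2.3.3, numpy 2.4.6 and matplotlib 3.10.9. Named were all 9 members, of each pathway list up to 4 called genes with the largest difference in yolk sac CD45- cells and up to 3 called in another population, and the 3 genes most like each member, of which 1 is not reported here. The members and lists were chosen with earlier results of these data known. Alternatives were quantile normalization, normexp (offset 50), scaling on probes detected on all arrays, no or a strict filter, the mean of a gene's probes, 1 row per probe, a trended robust prior, a replicate block, fits on fewer arrays and each array left out. Deviations of same-numbered arrays correlated above 0.1 in 8 of 28 pairs of groups, among them both gates of embryo controls (0.385), embryo Tie-2-Etv2 (0.222) and yolk sac Tie-2-Etv2 (0.372) but not yolk sac controls (0.032). Since not every pair did and no label gives a pairing, samples were not treated as paired. The gate comparisons thus ignore any material shared by both gates of a tissue and genotype. The replicate block was a shift common to all groups and did not model such sharing.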

Additional observations from a re-analysis of the deposited data

Results flagged for a closer look

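Tests of the difference between genotype effects picked out 13 results among the 9 genes, all by limma on the log2 scale. Between yolk sac and embryo CD45- cells the effect (Tie-2-Etv2 minus control) was more negative in the yolk sac for Klf2 by -2.11 (adjusted p = 0.0488), Nos3 by -2.91 (adjusted p = 0.00312), Ece1 by -1.91 (adjusted p = 0.00465), Calcrl by -2.49 (adjusted p = 0.00146), Ramp2 by -2.35 (adjusted p = 0.00952) and Thbd by -2.73 (adjusted p = 0.0152). Between CD45+ and CD45- cells of the yolk sac it was more positive in CD45+ cells for Nos3 by 2.33 (adjusted p = 0.004), Ece1 by 2.60 (adjusted p = 0.000321), Calcrl by 3.73 (adjusted p = 3.82e-05), Ramp2 by 3.53 (adjusted p = 0.000521), Thbd by 2.37 (adjusted p = 0.0199) and Egfl7 by 2.62 (adjusted p = 0.000135). In the embryo the gates differed for Egfl7 by 1.86 (adjusted p = 0.0072). The comparisons share samples. The 2 Thbd results were lost when single arrays were left out (adjusted p = 0.0503 to 0.0802), that of Klf2 when any 1 of 8 arrays was, without a filter and with 1 row per probe (adjusted p = 0.0522 to 0.16), and that of Egfl7 in the embryo on the slide alone (adjusted p = 0.115). The other results kept their call under each alternative, and with normexp the gate differences of Ece1 and Calcrl in the yolk sac were 2.01 and 2.87.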

How the results depend on the processing

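The numbers of the 9 genes called are given first as fitted and then under each alternative that moved them by over 1.5 times. In yolk sac CD45- cells 8 genes were called lower with the transgene under every alternative run, each array left out included. There, with quantile normalization, 5092 of all genes were higher and 4352 lower. In embryo CD45- cells 0 were called under every alternative. In embryo CD45+ cells 2 became 1 with normexp, detected-probe scaling, no filter or the embryo slide alone, 0 on the 4 arrays alone, and 1 to 2 with 1 array left out. In yolk sac CD45+ cells 6 became 3 to 4 with 1 array left out. Between gates, 7 in Tie-2-Etv2 yolk sac became 3 on the 4 arrays alone and 2 to 5 with 1 array left out. Between tissues, 2 in CD45- controls became 1 to 2 with 1 array left out; 5 in Tie-2-Etv2 CD45- cells became 3 without a filter and 3 to 4 with 1 array left out; 0 in CD45+ controls became 1 with quantile normalization and 0 to 1 with 1 array left out; 3 in Tie-2-Etv2 CD45+ cells became 1 without a filter, 1 on the 4 arrays alone and 0 to 1 with 1 array left out. Of differences of effects, 0 between tissues in CD45+ cells became 1 with normexp, the strict filter or the trended prior and 0 to 1 with 1 array left out, and 1 between gates of the embryo became 2 with quantile normalization or the strict filter and 0 on the embryo slide alone. With an array left out, the lone array of its group is assumed to vary like the others. Of 2250 single-gene values under alternatives, 2117 stayed on their side of the threshold with their direction, 105 calls were lost, 28 were gained and 0 called values reversed.

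With the replicate number as a block, a pairing the labels do not state, 6 calls were gained and 0 lost among the 9 genes: Edn1 in yolk sac CD45+ cells (adjusted p = 0.031, making 7 there) and between gates in embryo controls (adjusted p = 0.0422), Klf4 for the tissue difference of effects in CD45- cells (adjusted p = 0.0318), and Calcrl between tissues in CD45+ controls (adjusted p = 0.0396, making 1) and Tie-2-Etv2 CD45+ cells (adjusted p = 0.0294) and for the gate difference of effects in the embryo (adjusted p = 0.0295, making 2). Over all genes the block called 11470 in yolk sac CD45-, 9000 in yolk sac CD45+, 1033 in embryo CD45+ and 329 in embryo CD45- cells, against 10290, 8000, 747 and 316.

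Over all genes, counts differed by over 1.5 times in embryo CD45+ cells with normexp (1125), on the slide alone (407) and on the 4 arrays alone (0, with limma), and in embryo CD45- cells with the strict filter (175) and on the 4 arrays alone (134), and in yolk sac CD45+ cells on the 4 arrays alone (4497), against 747, 316 and 8000. With 2 arrays a group, moderate differences can be missed. The lowest level of the 9 genes on any array was that of Edn1 in yolk sac CD45+ Tie-2-Etv2 cells (-3.79), then Calcrl in embryo CD45+ controls (-3.66); with normexp the gate difference of Edn1 in Tie-2-Etv2 yolk sac went from -4.05 to -2.55 and that of Calcrl in embryo controls from -3.55 to -2.10.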
